A study of Homo sapiens with 6 samples.

Results

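Hyaluronan synthesis, binding and breakdown were followed through 10 named genes, HAS1, HAS2, HAS3, CD44, TNFAIP6, CEMIP, HYAL1, HYAL2, HYAL3 and HMMR. Every array probe to which the platform annotation gives one of these symbols was taken, which yielded 18 of the 48784 probes on the array and 8 of the 18848 genes named there. No probe carried the name HAS1 or HYAL1, so these genes were not analysed here. The cells were SW1353, a human chondrosarcoma line often used in place of chondrocytes. After some 20 h in serum-free medium, 3 samples received interleukin-1 alpha (IL-1, 0.5 ng/ml) and were harvested 6 h later, and 3 control samples received none. Each sample was hybridised to 1 Illumina bead array, and the labels' protocols name no other treatment or genetic change.

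Hyaluronan is a long unbranched sugar polymer that is made at the cell surface by the HAS synthases and extruded into the matrix. In cartilage it carries aggrecan and so helps the tissue hold water. Cells bind it through CD44, TNFAIP6 (also called TSG-6) attaches to it and modifies its network, and CEMIP and the hyaluronidases take part in its breakdown.

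Of the 6 of these genes that could be tested 3 rose with IL-1, TNFAIP6, CEMIP and CD44, and 0 fell, where 8.09% of all probes tested were called. With 1 probe a gene, 819 of 9078 genes were called. TNFAIP6 could be tested only through its signal on the IL-1 arrays, so it had to differ, and the count includes it. The RNA was taken in bulk, so a change in how many cells carry a transcript and a change in its amount per cell cannot be told apart. For the 3 genes called as higher, the stretch around the start site of each is shown here, from 250 bases before the start to 50 bases after it. Whether they share any regulation was not tested. The sequences are from RefSeq on GRCh38.p14, each on the plus strand at chr2:151357342-151357641, chr15:80779120-80779419 and chr11:35138921-35139220. Capitals mark matches to 4 motifs searched on both strands, an AP-1 motif (TGANTCA), a C/EBP motif (TTGCNNAA), a TATA box (TATAAA) and the NF-kB consensus.
TNFAIP6: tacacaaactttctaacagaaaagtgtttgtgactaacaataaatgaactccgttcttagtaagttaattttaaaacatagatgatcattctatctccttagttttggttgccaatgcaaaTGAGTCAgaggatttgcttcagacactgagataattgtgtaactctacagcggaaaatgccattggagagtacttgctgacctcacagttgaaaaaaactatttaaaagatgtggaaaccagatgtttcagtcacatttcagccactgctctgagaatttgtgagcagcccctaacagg
CEMIP: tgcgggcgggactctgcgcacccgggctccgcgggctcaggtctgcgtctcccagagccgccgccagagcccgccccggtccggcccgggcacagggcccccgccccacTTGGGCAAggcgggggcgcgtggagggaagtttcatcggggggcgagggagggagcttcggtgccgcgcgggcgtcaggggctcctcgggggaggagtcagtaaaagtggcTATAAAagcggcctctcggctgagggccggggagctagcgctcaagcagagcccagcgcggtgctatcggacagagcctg
CD44: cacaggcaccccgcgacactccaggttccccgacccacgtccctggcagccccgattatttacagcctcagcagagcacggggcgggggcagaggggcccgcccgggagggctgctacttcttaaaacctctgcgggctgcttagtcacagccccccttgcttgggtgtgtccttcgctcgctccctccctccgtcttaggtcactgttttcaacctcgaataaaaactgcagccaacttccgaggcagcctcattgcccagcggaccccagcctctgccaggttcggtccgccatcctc

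The TNFAIP6 window held 1 AP-1 match, whose bases lie -129 to -123 from the start site. The CEMIP window held 1 C/EBP match on the minus strand at -141 to -134 and 1 TATA box at -30 to -25, and the CD44 window held none of the 4 motifs. No 2 matches overlapped. The windows of HAS1, HAS3, HYAL1, HYAL2 and HMMR, searched in the same way, held none of the 4 motifs. Of 2 HYAL3 windows 1 held an NF-kB consensus match on the minus strand at -51 to -42, and HYAL3 was not called. No HAS2 window was at hand. The GC content was 37.0% in the TNFAIP6 window, 73.0% in the CEMIP window and 63.3% in the CD44 window. Among all 35116 promoters of this length, 7.71% held the AP-1 motif, 10.5% the C/EBP motif, 11.5% the TATA box and 5.91% the NF-kB consensus. A match is only a run of letters, and its absence from these windows says nothing about a factor that acts elsewhere.

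The sample titles come in 2 kinds, called title series here. The Allstars series holds replicates 1 and 2 of both groups, and the Sample series holds replicate 3 of both. What the kinds stand for is not given in the labels, so whether one series carried a further treatment is not known. Array medians of the signal were 91.5 on the Sample IL-1 array and 95.3 on the Sample control array, against 60.3 to 67.2 on the Allstars arrays. A probe counts as well above background where its detection p-value is under 0.01, which held for 11954 to 13357 probes an array. Of 8 listed chondrocyte genes 5, among them COL2A1 and ACAN, were well above background on no array by their brightest probe, and SOX9, a transcription factor of chondrocytes, was so on all 6. HAPLN1 and COL11A1 were also tested and were not called, with differences of -0.13 and -0.42 (limma adjusted p = 0.892 and 0.783). SOX9 read 8.42, 8.36 and 8.91 (log2 of the normalized signal) on the IL-1 arrays, against 9.51, 9.63 and 9.36 on the control arrays, and fell with a difference of -0.94 ± 0.19 (limma adjusted p = 0.0212). That call was lost without IL-1 replicate 1 or 2 or without control replicate 1 or 2 (adjusted p = 0.104, 0.0960, 0.0964 and 0.107), without a detection filter (0.0530) and with array medians made equal (1.00). Its part in the results below was not tested. Of 8 leukocyte markers 2 were tested, CD68 and CSF1R, of 5 endothelial markers 2, VWF and TEK, and of 4 epithelial markers 0, and none of these was called. When the fit took title series as a block, CD68 passed as higher, by 0.28, and CSF1R and VWF as lower, with differences of -0.54 and -0.62 (limma adjusted p = 0.0128, 0.00217 and 0.0164). That fit called 31.9% of all probes tested, 12.3% as higher and 19.6% as lower. The labels do not mention separate cultures, so the spread behind each p-value may be technical only, and precision is limited by having 3 arrays a group.

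Values below are normalized signals on the log2 scale, and differences are IL-1 minus control on that scale ± SE from limma, fitted over the 13017 probes that were well above background on at least 3 arrays. Of the 18 hyaluronan probes 8 passed that filter, covering 6 genes. Of these 8 probes 4 rose and 0 fell at an adjusted p under 0.05, and the same 4 rose when title series was a block in the fit. Among all probes tested 8.09% were called, 5.71% as higher and 2.38% as lower, and with the block 31.9% were called, 12.3% as higher and 19.6% as lower. In 4 of the 8 the IL-1 and control values did not overlap, which held for 26.6% of all probes tested. The TNFAIP6 probe passed the filter only through the IL-1 arrays, so it had to differ, and the counts include it. The 7 other probes had a median difference of 0.28, against -0.10 over all probes tested.

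**Figure D1:**
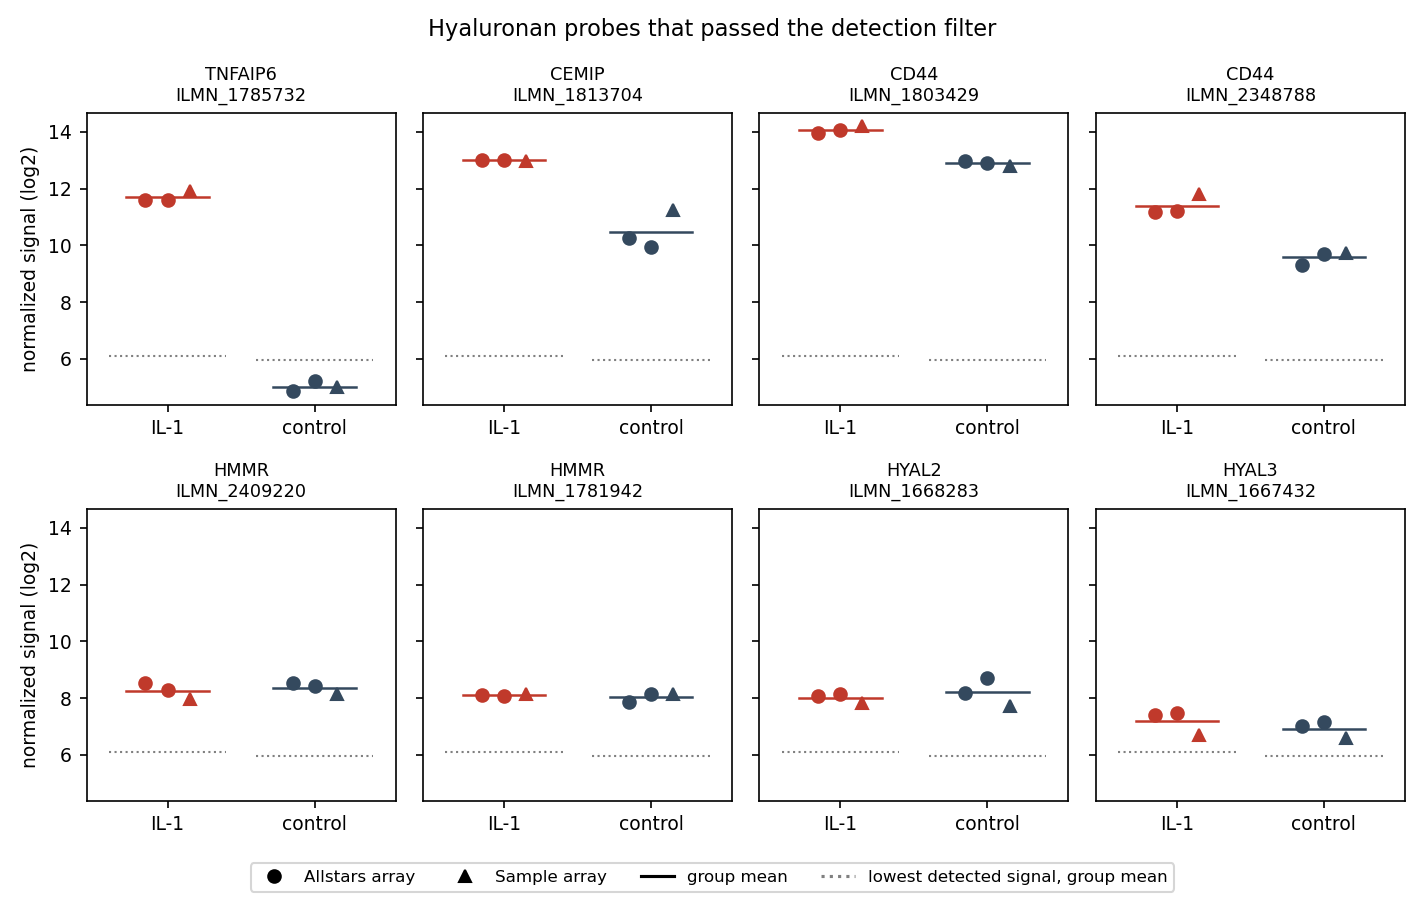
Normalized signal (log2, vertical axis) of the 8 hyaluronan probes that passed the detection filter, with IL-1 arrays at the left and control arrays at the right of each panel. Points are arrays (circles Allstars, triangles Sample), solid lines group means and dotted lines the mean over arrays of the lowest signal well above background. IL-1 and control points are apart for TNFAIP6, CEMIP and both CD44 probes and overlap in the lower row, and levels can be compared within a panel only.

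TNFAIP6 encodes a secreted protein with a hyaluronan-binding link module that also transfers heavy chains of inter-alpha-inhibitor onto hyaluronan. Its probe ILMN_1785732 read 11.62, 11.59 and 11.91 on the IL-1 arrays, against 4.85, 5.21 and 4.99 on the control arrays. All 3 IL-1 arrays were far above the control arrays, none of which was well above background, with detection values of 0.150, 0.0606 and 0.0659 against the limit of 0.01. The measured difference passed (limma adjusted p = 6.88e-07). After this normalization the rise was at least 53.7-fold, a bound to which that p-value does not belong. This bound sets the mean of the IL-1 arrays against the control arrays with each control value lifted to the dimmest signal that counts as well above background on its own array. The measured means were 11.70 ± 0.17 with IL-1 and 5.02 ± 0.18 in controls (SD, n = 3 each). The size of the bound depended on the values used, since it was 46.4-fold with equal array medians, 25.9-fold without background correction and 23.1-fold with the deposited log2 values, all set after seeing the data. The measured difference lay between 4.81 with the deposited values and 6.88 without control replicate 2, over 17 other settings, and passed in all 17. As the probe passed the filter only through the IL-1 arrays, it had to differ, so this passing adds no support.

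The array holds another TNFAIP6 probe, ILMN_2123217, annotated to the same transcript, and it gave no such signal. It read 4.65, 4.78 and 5.04 on the IL-1 arrays, against 4.76, 4.68 and 4.81 on the control arrays, and was well above background on 0 of the 6. The probes of TNFAIP6 therefore disagree, and the rise rests on 1 of them. Probe sequences were not used here, so where each lies on the transcript was not tested.

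Since no control array was well above background, no difference in response between the title series was drawn for TNFAIP6. Over the 6 arrays its values were most correlated with those of TCIM, CCL3 and CXCL8 among 9077 other genes, with a Pearson correlation of 1.00 each. A correlation takes no account of size, and the differences of these genes were 1.80, 7.78 and 7.76. The correlation was above 0.95 for 397 genes, and these points share only 6 arrays in 2 treatment groups.

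CEMIP encodes a protein required for the breakdown of high-molecular-weight hyaluronan by fibroblasts. Its 1 probe, ILMN_1813704, read 13.00, 13.02 and 12.97 on the IL-1 arrays, against 10.26, 9.94 and 11.24 on the control arrays. Every IL-1 array was above every control array, and the IL-1 values lay within a narrow band while the control arrays were spread. The rise of CEMIP was 2.52 ± 0.30, or 5.72-fold (limma adjusted p = 0.00170). In the blocked fit its adjusted p was 5.88e-08. The rise lay between 2.24 without control replicate 2 and 2.97 on the Allstars arrays alone, over 17 other settings, and passed in all 17.

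The control array of the Sample series stood apart for CEMIP. It exceeded the mean of the Allstars control arrays by 1.14, a gap that 1.60% of the probes tested exceeded, while the corresponding gap among IL-1 arrays was -0.04. The difference between IL-1 and control was 1.73 in the Sample pair and 2.91 on the Allstars arrays. The Sample response minus the Allstars response was -1.18 ± 0.18. Its unadjusted p of 4.90e-05 was the second lowest of all probes tested, but it did not pass (limma interaction, adjusted p = 0.268). No probe of the 13017 passed that test, and 676 had an unadjusted p under 0.05. Passing depended on the values used. With the deposited log2 values, an alternative chosen after seeing the data, the same contrast gave -0.94 ± 0.18 (limma interaction, adjusted p = 0.0289). Without background correction it gave -1.14 ± 0.18 (adjusted p = 0.0537), and with array medians made equal -1.05 ± 0.67, and it passed in neither. The Sample series has 1 array per group, so this rests on a single pair.

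Genes whose values over the 6 arrays were most like those of CEMIP were B4GALT5, TDO2 and FYTTD1, each with a Pearson correlation of 1.00. Above 0.95 there were 274 genes of 9077. In B4GALT5 the difference was 1.51 (limma adjusted p = 0.00459), in TDO2 1.78 (adjusted p = 0.00771) and in FYTTD1 0.95 (adjusted p = 0.00708). These genes were picked on the same arrays for likeness to CEMIP, whose groups are apart. That they differ follows from the choice and is no separate result.

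**Figure D2:**
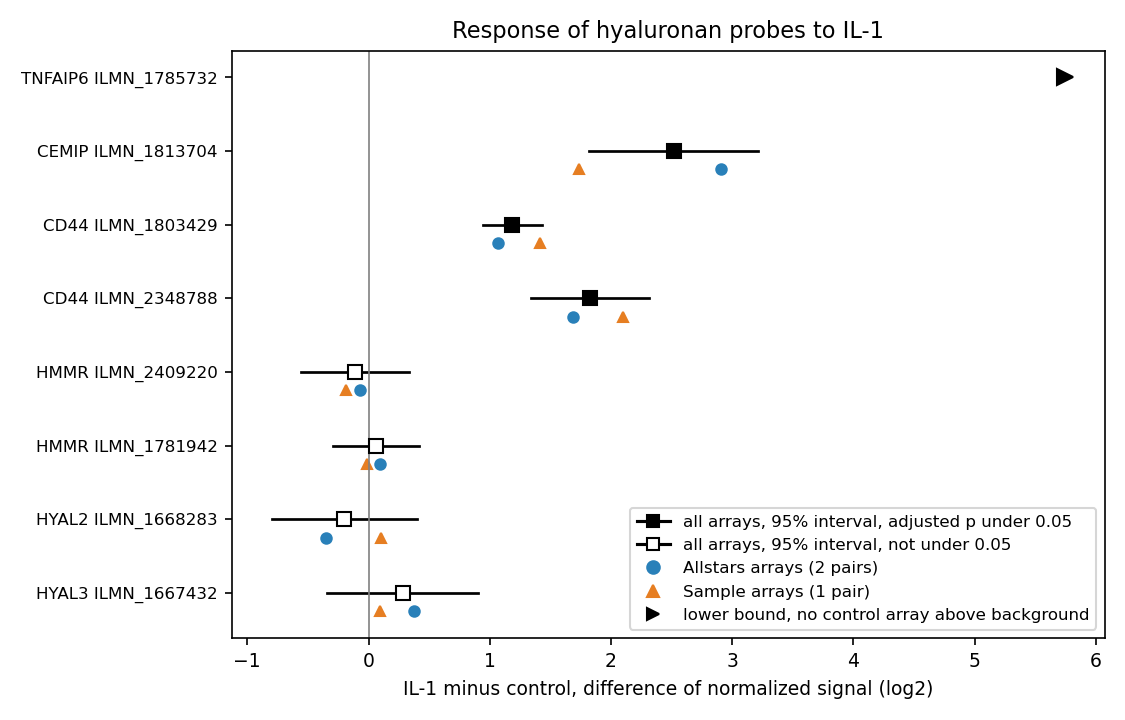
IL-1 minus control (log2, horizontal axis) for the 8 probes tested. Squares with 95% intervals are fits over all arrays, filled where the adjusted p is under 0.05, the circles and triangles give the Allstars arrays and the Sample pair, and the arrowhead is the lower bound of TNFAIP6 at 5.75. The Sample triangle lies at 1.73 and the Allstars circle at 2.91 for CEMIP, and the intervals of HMMR, HYAL2 and HYAL3 all include 0.

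CD44 encodes the main cell-surface receptor of hyaluronan and is spliced into many forms. It has 3 probes, each annotated to another transcript, and the annotation does not say which forms a probe reads besides that transcript. Probe ILMN_1803429 (NM_001001391) read 13.95, 14.07 and 14.20 on the IL-1 arrays, against 12.97, 12.91 and 12.79 on the control arrays. The groups did not overlap, and the difference was 1.19 ± 0.10, which is 2.27-fold (limma adjusted p = 0.000346).

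Probe ILMN_2348788 (NM_001001392) read 11.19, 11.21 and 11.81 on the IL-1 arrays, against 9.31, 9.70 and 9.71 on the control arrays. The groups were again apart, by 1.83 ± 0.21 or 3.55-fold (limma adjusted p = 0.00143). Both calls held in the blocked fit, with adjusted p = 5.89e-08 and 1.51e-08. Whether the 2 probes differ in the size of their response was not tested.

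The third CD44 probe, ILMN_1778625 (NM_000610), was close to background. It read 6.32, 6.16 and 6.04 on the IL-1 arrays, of which 2 were well above background, against 5.26, 5.29 and 5.10 on the control arrays, of which 0 were. It did not pass the filter and was not tested. All 3 IL-1 arrays were above the control arrays. Their mean exceeded the control values, lifted as for TNFAIP6, by 1.16-fold after this normalization. This is not a lower bound, since IL-1 replicate 2 was itself not well above background (detection value 0.0119). The same figure was 1.05-fold with equal array medians, and 1.08-fold without background correction or with the deposited log2 values. For the 2 probes tested, the title series gave 1.07 and 1.69 on the Allstars arrays and 1.41 and 2.10 in the Sample pair (limma interaction, adjusted p = 0.943 and 0.962).

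One scaling bears on CD44. When array medians were made equal in place of quantile normalization, without a block, the CD44 probes no longer passed (adjusted p = 1.00 and 0.521), while TNFAIP6 and CEMIP did. With the same scaling and title series as a block, all 3 genes passed.

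**Figure D3:**
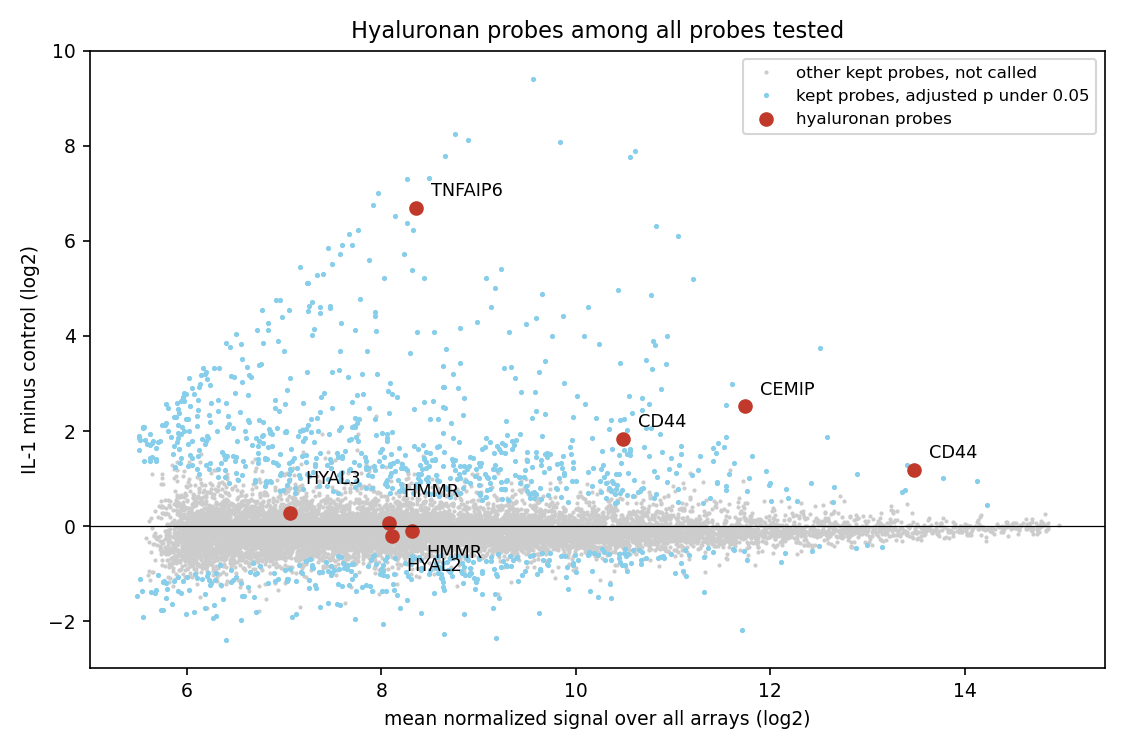
IL-1 minus control (log2, vertical axis) against mean normalized signal over the 6 arrays (log2, horizontal axis) for all 13017 probes tested. Blue points passed and grey points did not, and red points are the hyaluronan probes. The TNFAIP6 point rests on control values not well above background, CEMIP and CD44 lie among the rises of brighter probes, and HMMR, HYAL2 and HYAL3 lie near 0.

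The hyaluronidases did not pass the test. HYAL2 encodes a hyaluronidase anchored at the cell surface, and its probe ILMN_1668283 read 8.06, 8.14 and 7.82 on the IL-1 arrays, against 8.18, 8.72 and 7.72 on the control arrays. The groups overlapped, and the difference was -0.20 ± 0.26, with a 95% interval of -0.80 to 0.40 (limma adjusted p = 0.748). Its 2 other probes were near background: ILMN_1665916 was well above it on 1 control array and ILMN_1713840 on none.

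HYAL3 belongs to the same family, and its activity is less well defined. Its probe ILMN_1667432 read 7.41, 7.49 and 6.71 on the IL-1 arrays, against 7.00, 7.16 and 6.61 on the control arrays. The groups overlapped, and the difference was 0.28 ± 0.27, with a 95% interval of -0.34 to 0.90 (limma adjusted p = 0.647). In RefSeq HYAL3 overlaps NAA80, so its probe could read transcripts of both, which was not tested. The same limit holds for the other genes with a probe except HYAL2, since each overlaps another gene. CEMIP overlaps MESD among others, and CD44 overlaps CD44-AS1. Strand was not considered. HYAL2 and HYAL3 did not pass in the blocked fit either (adjusted p = 0.333 and 0.183).

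HMMR encodes a hyaluronan-binding protein that also sits on the mitotic spindle. Probe ILMN_2409220 read 8.52, 8.28 and 7.97 on the IL-1 arrays, against 8.53, 8.42 and 8.16 on the control arrays, and probe ILMN_1781942 read 8.12, 8.06 and 8.14 against 7.86, 8.13 and 8.15. IL-1 and control arrays overlapped for both. The differences were -0.11 ± 0.19, with a 95% interval of -0.56 to 0.34, and 0.06 ± 0.15, with an interval of -0.30 to 0.42 (limma adjusted p = 0.821 and 0.888). An interval that includes 0 does not show that the level stayed the same, but rises as large as those of the CD44 probes lie outside all 4 intervals of HMMR, HYAL2 and HYAL3.

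Of 14 mitotic genes set beside HMMR, among them TOP2A, CCNB1 and PLK1, 13 were tested, of which 0 rose and 0 fell in limma, where 8.09% of all probes were called, and 0 had an unadjusted p under 0.05. Their median difference was 0.00 and they ranged from -0.33 to 0.30. In the blocked fit TOP2A passed as lower and BUB1 as higher, with differences of -0.27 and 0.30 (limma adjusted p = 0.0326 and 0.0404). These are 2 of 13, where that fit called 31.9% of all probes, so they are no result about the mitotic genes.

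The synthases HAS2 and HAS3 gave almost no signal. HAS2, the one most often linked to long chains, has 4 probes and HAS3 has 2, and none passed the filter. The HAS2 probe ILMN_1792978 read 4.52, 4.61 and 5.90 on the IL-1 arrays, against 4.96, 4.66 and 6.14 on the control arrays. It was high on the arrays of the Sample series in both groups, with detection values of 0.0105 on the IL-1 array and 0.00395 on the control array, so that the control array alone passed the limit of 0.01. The 3 other HAS2 probes and both HAS3 probes were well above background on 0 of the 6 arrays, with values between 4.42 and 4.95. Apart from HAS2 on that array, HAS2 and HAS3 transcripts were not detectable at this signal over background, which does not show that they were absent.

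**Figure D4:**
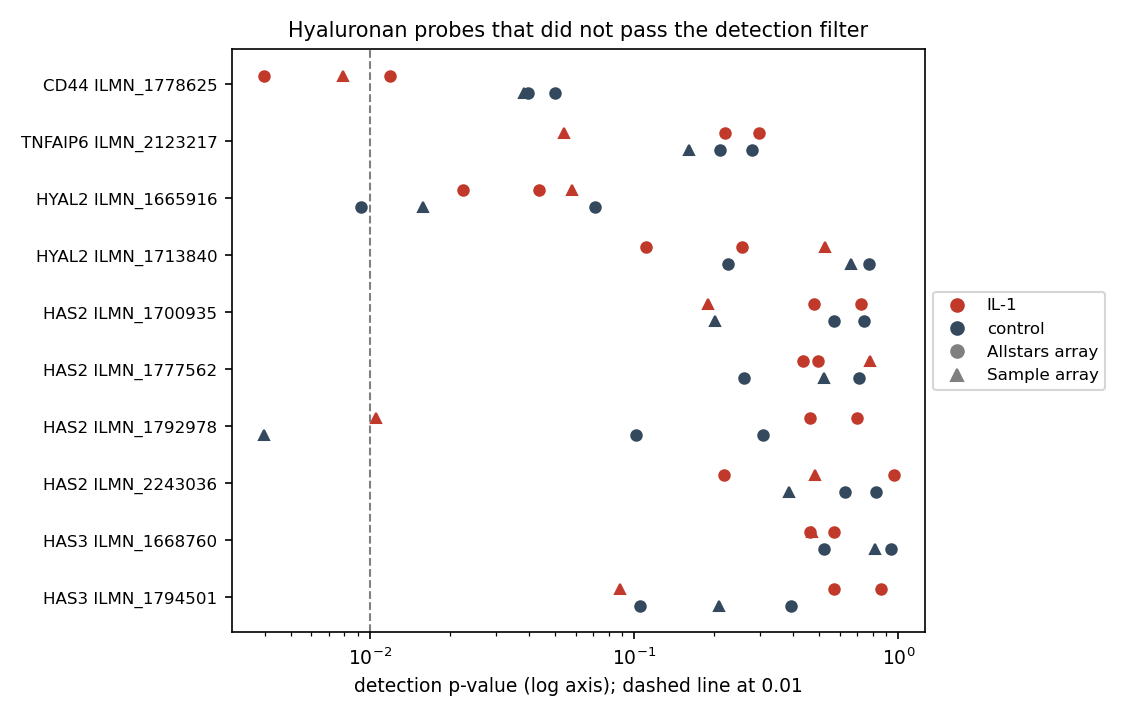
Detection p-value (log axis, horizontal) of the 10 hyaluronan probes that did not pass the filter, with IL-1 arrays in red above control arrays in dark blue, circles for Allstars and triangles for Sample. The dashed line marks 0.01. For CD44 2 of 3 IL-1 arrays lie below it, for HYAL2 and HAS2 1 control array each, and no array does for the TNFAIP6 and HAS3 probes.

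Other genes of hyaluronan metabolism were taken from 4 lists of 41 genes in all, of which 37 had a named probe and 16 were tested. Of these 1 rose and 0 fell, against the 5.71% and 2.38% of all probes called as higher and lower, and 15 did not pass, none of them with an unadjusted limma p under 0.05. Their median difference was 0.07, and in the blocked fit 2 rose and 2 fell, where that fit called 12.3% of all probes as higher and 19.6% as lower.

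HAPLN3, a link protein that ties proteoglycans to hyaluronan, was the riser (limma adjusted p = 0.0265 for the measured difference). Its bound, to which that p-value does not belong, was at least 1.29-fold, and 1.12 to 1.14-fold under the 3 other normalizations. It was well above background on 3 IL-1 arrays and 0 control arrays, so it too passed the filter only through IL-1. Its adjusted p reached 0.117 without IL-1 replicate 1, 0.0846 without IL-1 replicate 2, 0.116 without control replicate 1 and 0.113 without control replicate 2. It was 0.615 with array medians made equal and 0.296 with the deposited log2 values, and 0.00449 in the blocked fit.

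Among the 18 binding proteins and partners 4 were tested, and besides HAPLN3 these were HAPLN1, ITIH5 and the intracellular HABP4. HABP4 differed by -0.45 ± 0.30 (limma adjusted p = 0.479) and passed as lower in the blocked fit (adjusted p = 0.0376). VCAN, which encodes versican, and PTX3, a partner of TNFAIP6 in hyaluronan matrices, were well above background on no array. The same held for ITIH1, ITIH2 and ITIH3, which encode heavy chains that TNFAIP6 transfers, and for AMBP, which encodes bikunin.

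The precursor list covers enzymes that make the nucleotide sugars of hyaluronan. Of its 8 genes 5 were tested and 0 were called, also with the block, and all 5 differences were between 0.07 and 0.25. UGDH, which makes UDP-glucuronic acid, differed by 0.25 ± 0.17 (limma adjusted p = 0.482).

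Of the 9 genes for other receptors and uptake 4 were tested and 0 were called. MSN and EZR encode moesin and ezrin, which link CD44 to actin, and their differences were 0.32 ± 0.17 and -0.28 ± 0.20 (limma adjusted p = 0.370 and 0.523). In the blocked fit MSN passed as higher and EZR as lower (adjusted p = 0.00253 and 0.0373). LYVE1, STAB1, STAB2, LAYN and TLR2 were well above background on no array.

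Of 6 other breakdown enzymes 3 were tested, and 0 were called with or without the block. CEMIP2, a cell-surface relative of CEMIP, differed by 0.08 ± 0.30 (limma adjusted p = 0.928), beside 2.52 ± 0.30 for CEMIP. HEXA and GUSB, which encode lysosomal enzymes that trim hyaluronan fragments, differed by -0.22 each, with SE 0.17 and 0.13.

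**Figure D5:**
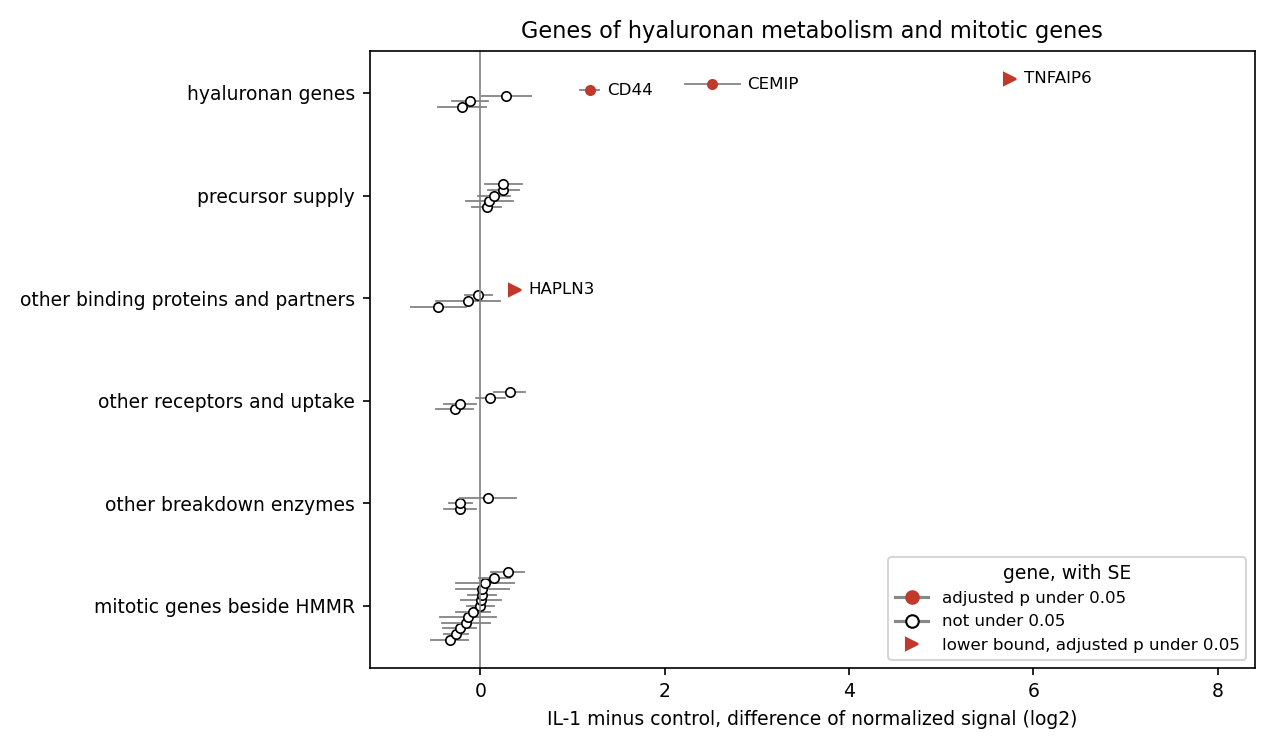
IL-1 minus control (log2, horizontal axis) with SE for each gene tested, by list, each gene shown by its brightest tested probe. Filled red points passed at an adjusted p under 0.05, open points did not, and arrowheads are lower bounds. CEMIP and CD44 lie at 2.52 and 1.19, the bounds of TNFAIP6 and HAPLN3 at 5.75 and 0.37, and the other points lie between -0.45 and 0.32.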

How the data were processed

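Each array's deposited values are a probe intensity and a detection p-value, per the file headers, without any stated correction. The authors' series matrix gives log2 values, for which the submitters' processing notes name lumi and no settings. Medians of these deposited log2 values were 5.86 to 5.87 on Allstars arrays and 6.49 to 6.50 on Sample arrays, and whether the authors normalized the series apart is unknown.

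Background correction and quantile normalization used neqc (limma 3.58.1, R 4.3.3, offset 16). Probes well above background on 3 or more arrays entered lmFit and eBayes with a trend, two-sided, and p-values were Benjamini-Hochberg adjusted over all 13017. The main design held treatment only. Deviations from group means correlated by 0.515, 0.533 and 0.820 between same-numbered samples of the 2 groups, and by 0.462 and 0.479 between differently numbered Allstars samples. Within Allstars the difference of replicate 1 minus 2 correlated by 0.07 between the groups, so the correlation follows title series more than number. Fits with a block are given. Number 3 was assigned here by accession order, and its pair shares the title kind. Symbols came from GEO's platform annotation, and RefSeq changed 0 of them. A list gene is represented by its tested probe of highest mean. Members and lists were chosen with earlier results of these data known. All probes of the 10 genes are reported. Named by rule from the other lists were called genes, and for TNFAIP6 and CEMIP the 3 most correlated genes. Other list genes were named after their values were seen. The fit was also run on simulated data with independent noise. That check does not bear on the detection filter or on whether the arrays are separate cultures.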

Additional observations from a re-analysis of the deposited data

How the results depend on the processing

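TNFAIP6 and CEMIP passed under all 17 other settings, with differences of 4.81 to 6.88 and 2.24 to 2.97. For TNFAIP6 the passing adds no support, since its probe passed the filter only through the IL-1 arrays and had to differ. Its differences are also measured against control values not well above background. CD44 passed under all except equal array medians without a block, where its probes gave 1.17 and 1.74 (adjusted p = 1.00 and 0.521). The cause was not tested. Of all probes, 1053 were called as reported, 4156 with title series as a block, 4330 with the replicate block, 3353 on the Allstars arrays alone and 4220 with title series as a block on the deposited log2 values. The replicate block changed no call of a hyaluronan probe. With equal array medians 226 were called, 218 as higher and 8 as lower, against 743 and 310 as reported, and the median difference of all probes moved to -0.22 from -0.10.

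Of the 41 other genes of hyaluronan metabolism 16 were tested. Among these 1 was called as reported, 4 with either block and with the block on deposited values. On the Allstars arrays 3 were called, and 0 with equal medians or with the deposited log2 values. Of all 13017 probes 8.09% were called as reported, 31.9% with title series as a block, and 3353 probes on the Allstars arrays. Leaving out 1 array in turn gave 555 to 1198 calls over all probes and 0 to 1 among these genes. Calls of a difference in response between title series numbered 0 as reported, 2 with equal medians, 5 without background correction and 35 with the deposited log2 values.

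Signs turned only for values that did not pass. The HMMR probe ILMN_1781942 gave -0.11 with equal medians, with and without the block, -0.00433 with the deposited log2 values, with and without it, and -0.035 to 0.11 with 1 array left out. The HMMR probe ILMN_2409220 gave -0.24 to 0.031 and HYAL2 -0.44 to 0.058 with 1 array left out. The title series difference turned to 0.084 and 0.13 for HMMR with equal medians and to -0.066 for TNFAIP6 with the deposited log2 values, where it was 0.34 as reported and 1.57 with equal medians, all against control values not well above background. The fits that combine a block with equal medians or deposited values, and that of the series difference on deposited values, were chosen after seeing the data. Signal over background is the limit for HAS2 and HAS3, which no setting with a detection filter on 3 arrays could test.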
